A study of Homo sapiens with 6 samples.

Results

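The genes described here encode 34 ribosome biogenesis factors, chosen by name from the 35106 genes of the deposited count table. They were read in HCT116 cells, a human colon carcinoma line, whose RNA was sequenced in 6 libraries. The 3 curcumin libraries came from wild-type cells given 30 µM curcumin, the yellow polyphenol of turmeric, for 24 h, the unit being written in the labels as that of a length. The 3 untreated libraries came from wild-type cells of the same line labelled as having no treatment, and no solvent control is named in the sources used here. The labels do not say whether the replicates of a group were separate cultures, so the p-values refer to the spread among these 6 libraries alone, which may be technical. The comparison of curcumin with untreated cells is the one the study's design states, and within it the small nucleolar RNP proteins were set against the pre-ribosome processing factors.

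A ribosome is built in the nucleolus, where RNA polymerase I makes the long precursor of ribosomal RNA. Small nucleolar RNPs (snoRNPs) guide chemical modification and some cleavages of that precursor, the box C/D class placing ribose methyl groups and the box H/ACA class converting uridine to pseudouridine. Processing and assembly factors then fold and cut the precursor on separate paths to the small and the large subunit, and colon carcinoma cells, like other fast-growing cells, are known for large, active nucleoli. The 34 factors comprise 3 box C/D core proteins, 4 box H/ACA core proteins, 11 small-subunit factors, 11 large-subunit factors and 5 nucleolar proteins that organise the nucleolus or act in rRNA synthesis.

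All 34 factors were expressed highly enough to be tested, and they did not move as a block. Of them, 9 were higher after curcumin (26.5%, against 27.2% of the 13718 genes tested), 12 were lower (35.3%, against 28.9% of the genes tested) and 13 did not pass the test. The test was edgeR's quasi-likelihood test, with a call where the p adjusted by Benjamini-Hochberg over all genes tested was under 0.05. The shares called are near those of all genes in both directions, so the counts alone do not set the factors apart. Their median log2 fold change was -0.27, against -0.04 for all genes tested, the fold change being curcumin over untreated throughout. The libraries of the 2 groups did not overlap for 9 factors that were higher after curcumin (26.5%, against 30.9% of all genes) and for 13 that were lower (38.2%, against 33.1%).

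The medians differed between roles. The 7 snoRNP core proteins had a median log2 fold change of 0.90, with 4 called higher and 2 lower (57.1% and 28.6%). The 22 small- and large-subunit factors had a median of -0.49, with 3 called higher and 10 lower (13.6% and 45.5%). Of all genes tested, 27.2% were called higher and 28.9% lower. The snoRNP proteins were themselves divided, with a median of 1.08 for the 3 box C/D proteins and -0.15 for the 4 box H/ACA proteins. The difference between the medians of the 7 snoRNP proteins and the 22 subunit factors (the processing factors) was 1.39. No test was made of this difference, since it is a score over chosen genes. It can also be read within each library, where no scaling between libraries enters. CPM are counts scaled to library totals that edgeR's TMM factors had adjusted, so they are not shares of all counts. The median log2 CPM of the snoRNP proteins exceeded that of the processing factors by 1.79, 1.74 and 1.48 in curcumin libraries 1 to 3. In untreated libraries 1 to 3 it did so by 0.64, 0.70 and 0.32. The lowest curcumin library thus lay above the highest untreated one. The difference in fold change was 1.67 without curcumin library 3 and 0.92 once the dependence of each library on the length and GC content of transcripts was removed, and it ran from 1.30 to 1.67 as single libraries were left out.

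Many of the promoters share a sequence that the choice of genes did not use. CACGTG, the E-box that MYC and other basic helix-loop-helix factors are known to bind, reads the same on both strands and was searched from 250 bases before to 50 bases after each start site (RefSeq, GRCh38.p14, 28 of the 34 factors matched by symbol). It occurred in 11 of the 28 promoters (39.3%), against 7.43% of 27305 promoters of all genes and 8.88% of 15843 promoters of protein-coding genes. In 8 of the 28 (28.6%) it began within the first 50 transcribed bases, against 0.912% of all promoters and 0.997% of protein-coding ones. It lay in 2 of 6 promoters of factors called higher, in 2 of 10 of those called lower and in 7 of 12 of those not called. The sites of 8 factors are shown 5′ to 3′ with 10 bases on each side and the motif in capitals, to let the bases around the start site be compared between factors that were higher, lower and not called.
FBL, called higher: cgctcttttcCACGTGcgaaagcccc
RRP9, called higher: gttcagctgcCACGTGagttctgcgg
WDR43, called lower: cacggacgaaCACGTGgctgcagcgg
UTP20, called lower: tttttccgtcCACGTGacccactcag
NOP14, not called: cgcggcccggCACGTGtcttagggta
PES1, not called: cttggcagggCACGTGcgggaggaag
MYBBP1A, not called: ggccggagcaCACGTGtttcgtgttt
NOP10, not called: aattgacgaaCACGTGacgcggtcgg
These 26-base windows lie at chr19:39846358-39846383 on the minus strand (FBL), chr3:51941894-51941919 minus (RRP9), chr2:28894660-28894685 plus (WDR43), chr12:101280085-101280110 plus (UTP20), chr4:2963376-2963401 minus (NOP14), chr22:30591882-30591907 minus (PES1), chr17:4555342-4555367 minus (MYBBP1A) and chr15:34343132-34343157 minus (NOP10). The motif begins 7 bases into the FBL transcript, 4 into WDR43, 16 into NOP14, 14 into PES1 and 28 into MYBBP1A, and it begins 5 bases before the start site of RRP9, 10 before that of UTP20 and 11 before that of NOP10. A match describes the letters and is not evidence of binding.

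The 3 box C/D core proteins were all higher after curcumin. FBL (fibrillarin), the methyltransferase of the particle, had 355, 399.5 and 402 CPM in curcumin libraries 1 to 3, against 132, 116 and 105 CPM in untreated libraries 1 to 3. The groups were far apart, with a log2 fold change of 1.71 ± 0.14 (SE) and an adjusted p of 1.7e-05 by edgeR. NOP58, a scaffold of the particle, had 106, 92.5 and 107 CPM after curcumin, against 46.9, 55.2 and 42.4 CPM in untreated cells. Its paralogue and partner NOP56 had 228, 221 and 244 CPM after curcumin, against 116, 134 and 122 CPM in untreated cells. Every curcumin library again lay above every untreated one, with log2 fold changes of 1.08 ± 0.15 for NOP58 (edgeR adjusted p = 0.00025) and 0.90 ± 0.13 for NOP56 (edgeR adjusted p = 0.00031). With library size alone as the scaling, the changes were 0.27 for NOP58 and 0.09 for NOP56 and neither was called, while FBL stayed higher. The ratio of NOP56 to NOP58 was 2.16, 2.39 and 2.27 in curcumin libraries 1 to 3, against 2.48, 2.44 and 2.87 in untreated libraries 1 to 3, so the curcumin ratios lay just below the untreated ones, without overlap.

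The 4 box H/ACA core proteins, which assemble with one another on a single class of guide RNA and also on telomerase RNA, diverged. NHP2, an RNA-binding subunit, had 183, 201 and 192 CPM in curcumin libraries 1 to 3, against 66.3, 75.4 and 49.4 CPM in untreated libraries 1 to 3. GAR1, the subunit that joins late in assembly, had 5.97, 7.61 and 6.80 CPM after curcumin, against 14.2, 12.3 and 13.1 CPM in untreated cells. NHP2 rose, with a log2 fold change of 1.59 ± 0.17 (edgeR adjusted p = 5.3e-05), and GAR1 fell, with -0.96 ± 0.21 (edgeR adjusted p = 0.0032). The ratio of NHP2 to GAR1, which no scaling between libraries can alter, was 30.6, 26.4 and 28.3 in curcumin libraries 1 to 3, against 4.68, 6.11 and 3.76 in untreated libraries 1 to 3. The lowest curcumin ratio was thus well above the highest untreated one. NHP2 overlaps RMND5B on the opposite strand, and RMND5B averaged 225 counts after curcumin, against 831 in untreated cells.

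DKC1 and NOP10 had smaller fitted changes. DKC1 (dyskerin), the pseudouridine synthase itself, had 78.3, 65.8 and 50.3 CPM in curcumin libraries 1 to 3, against 91.6, 89.8 and 89.7 CPM in untreated libraries 1 to 3. The untreated libraries were almost equal and the curcumin libraries spread below them, with a log2 fold change of -0.48 ± 0.17 (edgeR adjusted p = 0.036). That call was lost in 6 of 15 alternative settings. Those were median-of-ratios scaling (edgeR adjusted p = 0.051) and the fits without curcumin library 2, curcumin library 3, untreated library 1, untreated library 2 or untreated library 3 (edgeR adjusted p = 0.085, 0.068, 0.089, 0.059 and 0.068). NOP10, the smallest subunit, had 35, 36.9 and 27.3 CPM after curcumin, against 31.9, 28.1 and 27.6 CPM in untreated cells, and the groups overlapped. Its log2 fold change was 0.18 (95% interval -0.20 to 0.56, edgeR adjusted p = 0.40). NOP10 was called lower with library size alone (-0.62) and with the length and GC trend removed (-1.35). With the most abundant genes left out of the library size its value was negative but not called (-0.18). The ratio of FBL to DKC1, the catalytic subunits of the 2 snoRNP classes, was 4.53, 6.07 and 8.0 in curcumin libraries 1 to 3, against 1.44, 1.29 and 1.17 in untreated libraries 1 to 3.

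**Figure D1:**
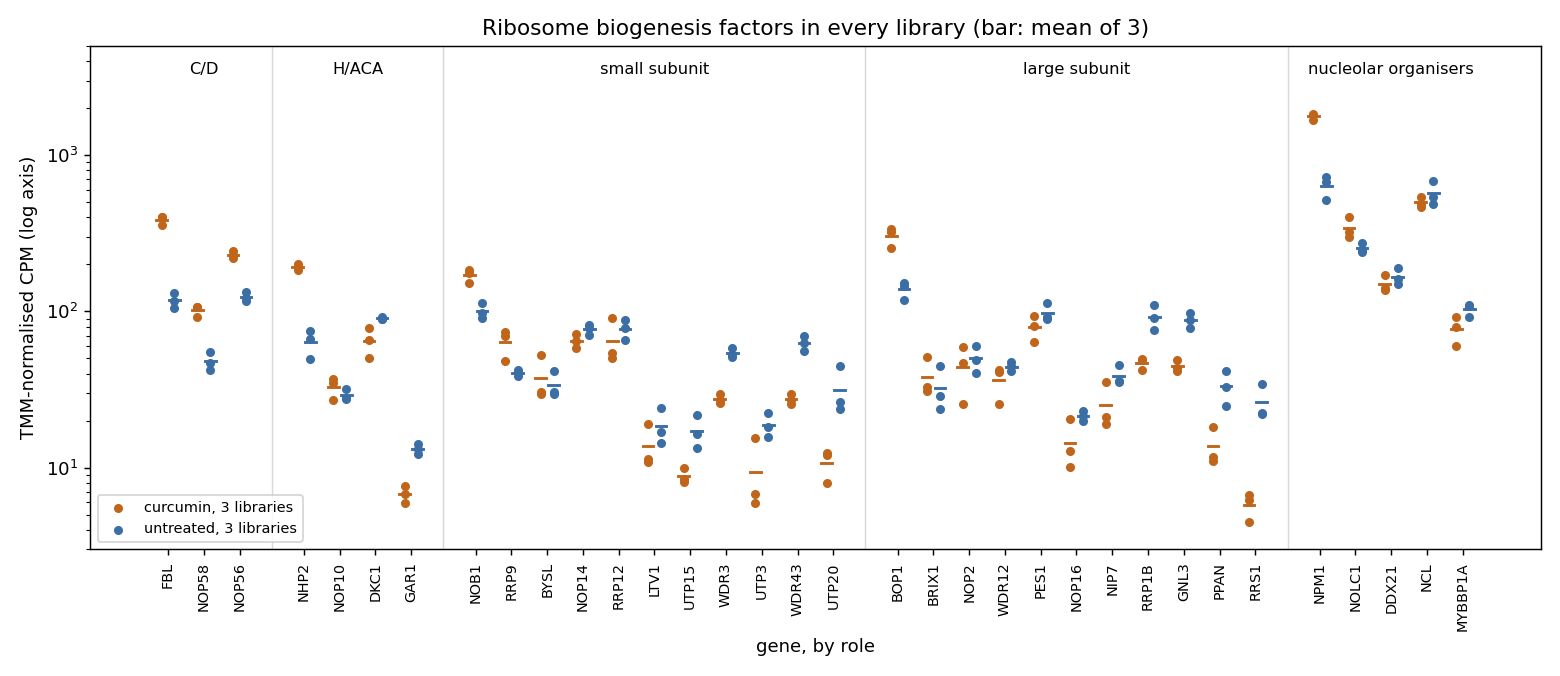
Level of each of the 34 factors in every library (TMM-normalised CPM, log axis), by role, with curcumin left of untreated for each gene and the mean of 3 libraries as a bar. FBL, NHP2 and NPM1 stand apart upward in all 3 curcumin libraries, and RRS1, GAR1 and WDR43 downward.

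Among the 11 small-subunit factors, 5 were lower (45.5%, against 28.9% of all genes) and 2 higher (18.2%, against 27.2%). Another 4 did not pass the test, and the median log2 fold change of the 11 was -0.42. The lower ones belong to the small-subunit processome, the large particle that forms on the start of the rRNA precursor. WDR43, of the subcomplex that binds first and is linked to transcription of the precursor, had 29.6, 25.4 and 27.1 CPM in curcumin libraries 1 to 3, against 56.2, 70.0 and 62.7 CPM in untreated libraries 1 to 3. WDR3, of another processome subcomplex, had 29.7, 25.8 and 27.3 CPM after curcumin, against 51.1, 58.6 and 52.4 CPM in untreated cells. Neither gene's groups overlapped, with log2 fold changes of -1.20 ± 0.16 (edgeR adjusted p = 0.00015) and -0.97 ± 0.15 (edgeR adjusted p = 0.00042). UTP20, a very large scaffold protein of the same particle, had 12, 12.4 and 7.97 CPM after curcumin, against 23.8, 44.8 and 26.2 CPM in untreated cells. Its log2 fold change was -1.55 ± 0.28 (edgeR adjusted p = 0.001), and untreated library 2 stood well above the rest of its group.

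UTP15, a partner of WDR43 in the first-binding subcomplex, averaged 8.84 ± 1.02 CPM after curcumin and 17.1 ± 4.25 CPM in untreated cells (SD, n = 3 each; edgeR adjusted p = 0.0059). With the length and GC trend removed, WDR3, UTP15 and UTP20 were no longer called, at log2 fold changes of -0.01, -0.50 and -0.66, whereas WDR43 still was. The processome protein UTP3 averaged 9.45 ± 5.30 CPM after curcumin and 18.8 ± 3.35 CPM in untreated cells (SD, n = 3 each), with a log2 fold change of -0.99 ± 0.34 (edgeR adjusted p = 0.03). Curcumin library 3, at 15.5 CPM, lay just under the lowest untreated library, at 15.8 CPM. The UTP3 call was lost without curcumin library 1, curcumin library 2, untreated library 1 or untreated library 2 (edgeR adjusted p = 0.082, 0.10, 0.11 and 0.057).

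The 2 small-subunit factors that were higher act at opposite ends of the path. RRP9, the protein specific to the U3 snoRNP that is needed for the earliest cleavages, had 74.1, 69.1 and 48.5 CPM in curcumin libraries 1 to 3, against 40.9, 42.3 and 38.7 CPM in untreated libraries 1 to 3. NOB1, the nuclease that makes the final cut at the end of the small-subunit rRNA in the cytoplasm, had 176, 185 and 152 CPM after curcumin, against 113, 90.2 and 97.0 CPM in untreated cells. Neither gene's groups overlapped, with log2 fold changes of 0.65 ± 0.18 for RRP9 (edgeR adjusted p = 0.011) and 0.77 ± 0.15 for NOB1 (edgeR adjusted p = 0.0015), both of which turned slightly negative (-0.14 and -0.03) with library size alone. With the length and GC trend removed neither was called, RRP9 standing at 0.00 and NOB1 at 0.29, and RRP9 also lost its call with the most abundant genes left out of the library size (0.30) and without curcumin library 2 (edgeR adjusted p = 0.052).

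The remaining small-subunit factors did not pass the test. NOP14, a processome protein, had a log2 fold change of -0.24 (95% interval -0.56 to 0.07). LTV1, which rides on the exported small-subunit precursor, had -0.42 (95% interval -1.04 to 0.20) and was called lower without curcumin library 3 (edgeR adjusted p = 0.03). RRP12, an export factor, had -0.26 (95% interval -0.77 to 0.25) and was likewise called lower without curcumin library 3 (edgeR adjusted p = 0.013). With library size alone NOP14, LTV1 and RRP12 were all called lower (-1.05, -1.24 and -1.08). The same held with the most abundant genes left out (-0.6, -0.79 and -0.63). LTV1 was also called lower with the length and GC trend removed (-0.79, edgeR adjusted p = 0.037). BYSL, another factor of the small-subunit precursor, had 0.15 (95% interval -0.40 to 0.69), but -0.18 without curcumin library 3. With library size alone BYSL was called lower (-0.68). Its value was also negative, but not called, with the most abundant genes left out and with the length and GC trend removed. In RRP12, LTV1 and BYSL, curcumin library 3 was the highest of its group.

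Among the 11 large-subunit factors, 5 were lower (45.5%, against 28.9% of all genes) and 1 higher (9.09%, against 27.2%). Another 5 did not pass the test, and the median log2 fold change of the 11 was -0.56. RRS1, which in yeast brings the small ribosomal RNA of the large subunit into the particle with its proteins, had 6.20, 4.52 and 6.64 CPM in curcumin libraries 1 to 3, against 22.5, 34.4 and 22.2 CPM in untreated libraries 1 to 3. It had the largest fall of the 34 factors in edgeR's fit, with a log2 fold change of -2.19 ± 0.25 (edgeR adjusted p = 7.6e-05). GNL3 (nucleostemin), a nucleolar GTPase of proliferating and stem cells, had 41.5, 43.3 and 48.7 CPM after curcumin, against 88.6, 98.0 and 78.2 CPM in untreated cells. RRP1B, a nucleolar protein of the precursors, had 48.7, 49.7 and 42.2 CPM after curcumin, against 76.2, 109.6 and 91.4 CPM in untreated cells. Neither overlapped between groups, at log2 fold changes of -0.99 ± 0.15 for GNL3 (edgeR adjusted p = 0.00037) and -0.98 ± 0.17 for RRP1B (edgeR adjusted p = 0.00079).

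PPAN, whose yeast counterpart binds early large-subunit precursors, averaged 13.7 ± 3.93 CPM after curcumin and 33.1 ± 8.52 CPM in untreated cells (SD, n = 3 each; log2 fold change -1.27 ± 0.26, edgeR adjusted p = 0.0019). It shares its exons and strand with the readthrough gene PPAN-P2RY11, which averaged 21.4 counts after curcumin and 238 in untreated cells, and how reads were divided between them is not given in the sources used here. NIP7, a pre-rRNA processing factor, averaged 25.1 ± 8.80 CPM after curcumin and 38.8 ± 5.66 CPM in untreated cells (SD, n = 3 each), with a log2 fold change of -0.63 ± 0.24 (edgeR adjusted p = 0.046). This call was weak. It was lost with median-of-ratios scaling, at a mean of at least 50 counts, and without curcumin library 1, curcumin library 2, untreated library 1, untreated library 2 or untreated library 3 (edgeR adjusted p = 0.14, 0.15, 0.07, 0.13 and 0.065). NIP7 overlaps COG8 on the opposite strand, which averaged 124 counts after curcumin and 1262 in untreated cells, and GNL3 likewise overlaps PBRM1, at 391 counts after curcumin and 1204 in untreated cells. Whether strand was used in counting is not given in the sources used here, so reads of such overlapping pairs cannot be told apart.

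BOP1 and PES1 parted although they work in a single complex, PeBoW, together with WDR12, where they are needed to mature the large-subunit rRNAs. BOP1 had 335, 324 and 256 CPM in curcumin libraries 1 to 3, against 146, 151 and 119 CPM in untreated libraries 1 to 3. PES1 had 93.5, 80.3 and 63.9 CPM after curcumin, against 91.9, 114 and 88.8 CPM in untreated cells. BOP1 rose without overlap, with a log2 fold change of 1.13 ± 0.16 (edgeR adjusted p = 0.00024), and was not called with library size alone (0.34). PES1 and WDR12 did not pass the test, at log2 fold changes of -0.31 (95% interval -0.70 to 0.08) and -0.29 (95% interval -0.73 to 0.16), and with the length and GC trend removed WDR12 turned to 0.58 while PES1 was called lower (-0.45, edgeR adjusted p = 0.048). Both were called lower with library size alone and with the most abundant genes left out. The ratio of BOP1 to PES1 was 3.59, 4.03 and 4.0 in curcumin libraries 1 to 3, against 1.59, 1.33 and 1.35 in untreated libraries 1 to 3. The ratio of BOP1 to WDR12 was 7.95, 7.91 and 9.96 in curcumin libraries 1 to 3, against 3.28, 3.21 and 2.89 in untreated libraries 1 to 3. Both ratios were higher in every curcumin library than in any untreated one.

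The other 3 large-subunit factors did not pass the test. NOP2, a methyltransferase of the large-subunit rRNA, had a log2 fold change of -0.18 (95% interval -0.80 to 0.43), which was 0.08 without curcumin library 2, where NOP2 was lowest. With library size alone NOP2 was called lower (-1.0). NOP16, known in yeast from large-subunit precursors, had -0.56 (edgeR adjusted p = 0.08), and 6 of the 15 alternatives called it lower, among them the fit without curcumin library 3 (edgeR adjusted p = 0.0029). BRIX1, an early large-subunit assembly factor, had 0.23 (95% interval -0.36 to 0.83), but -0.03 without curcumin library 3, and it was also negative with library size alone, with the most abundant genes left out and with the length and GC trend removed.

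**Figure D2:**
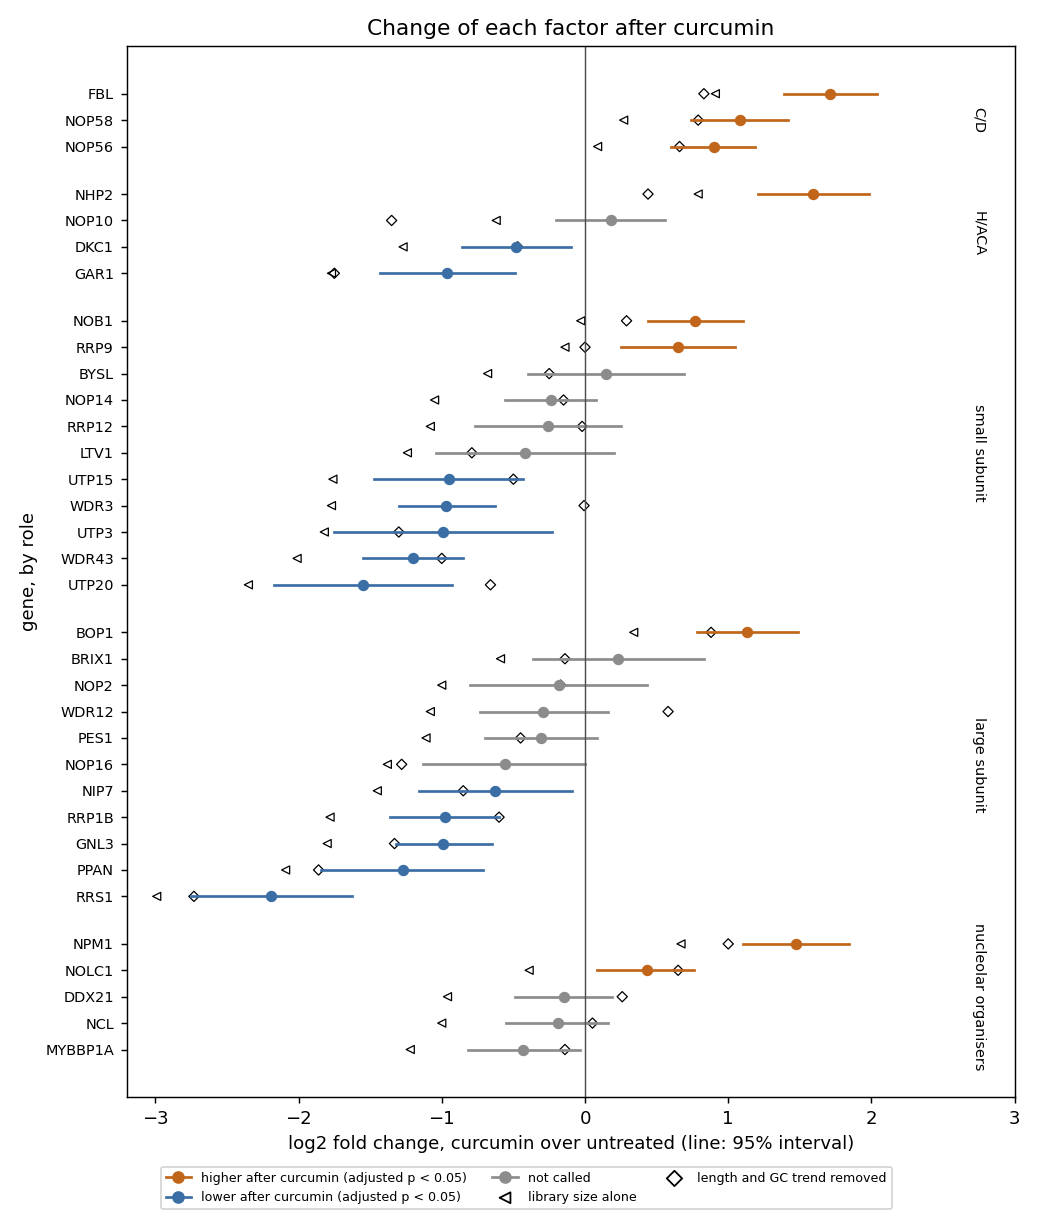
Log2 fold change (curcumin over untreated) of each factor by role, with its 95% interval (circles and lines, edgeR with TMM factors), beside the values with library size alone (triangles) and with the length and GC trend removed (diamonds). Library size alone moves every factor to the left, which turns NOP10, NOB1, RRP9, BYSL, BRIX1 and NOLC1 below 0, while FBL, NHP2 and NPM1 stay above 0 and RRS1, PPAN, WDR43 and GNL3 stay below it.

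Of the 5 nucleolar organisers, NPM1 and NOLC1 were higher (40%, against 27.2% of all genes), none was lower (against 28.9%) and 3 did not pass the test. NPM1 (nucleophosmin), an abundant chaperone of the granular outer layer of the nucleolus, had 1799, 1823 and 1684 CPM in curcumin libraries 1 to 3, against 677, 724 and 513 CPM in untreated libraries 1 to 3. NCL (nucleolin), the other abundant nucleolar protein, had 537, 489 and 468 CPM after curcumin, against 539, 683 and 485 CPM in untreated cells. NPM1 rose without overlap, with a log2 fold change of 1.47 ± 0.16 (edgeR adjusted p = 6.4e-05). NCL overlapped between groups and did not pass the test (-0.19, 95% interval -0.55 to 0.16), turning to 0.05 with the length and GC trend removed. It was called lower with library size alone (-1.0) and with the most abundant genes left out (-0.55). The ratio of NPM1 to NCL was 3.35, 3.73 and 3.6 in curcumin libraries 1 to 3, against 1.26, 1.06 and 1.06 in untreated libraries 1 to 3. NPM1 has many processed copies in the genome. The 46 pseudogenes of it in the table summed to 15.4 counts per curcumin library and 7.7 per untreated library on average, or 0.07% of the counts of NPM1 itself after curcumin and 0.05% in untreated cells.

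**Figure D3:**
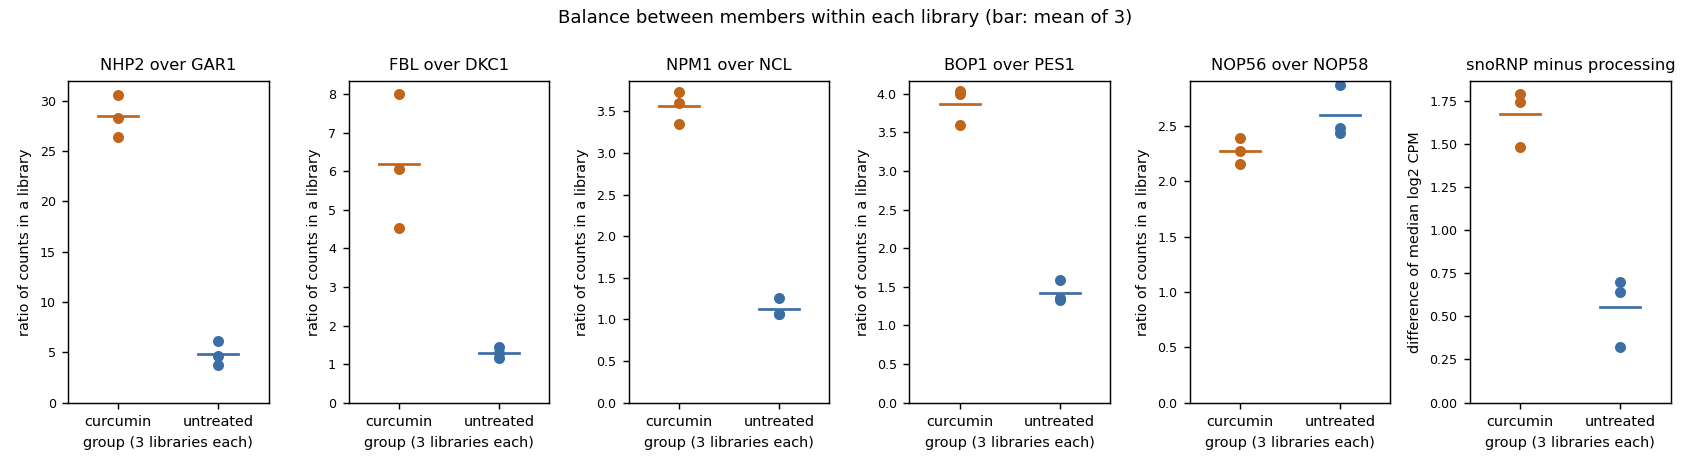
Ratios of counts of factors that work together (first 5 panels) and the median log2 CPM of the 7 snoRNP core proteins minus that of the 22 processing factors (last panel), in each library (points, with the mean of 3 as a bar; curcumin left, untreated right; linear axes from 0). In the last panel the curcumin libraries lie at 1.48 to 1.79 and the untreated libraries at 0.32 to 0.70, and the ratio of NOP56 to NOP58 is the one that is lower after curcumin.

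NOLC1, a chaperone of snoRNPs in the nucleolus and Cajal bodies, had 299.7, 323 and 402 CPM in curcumin libraries 1 to 3, against 239, 276 and 248 CPM in untreated libraries 1 to 3. The groups did not overlap, but the log2 fold change was small at 0.43 ± 0.15 (edgeR adjusted p = 0.036), and with library size alone it was -0.39, called lower (edgeR adjusted p = 0.038). The call held in 7 of 15 alternatives, among them the removal of the length and GC trend (0.65). It was also lost with no filter on low counts (0.34), with the most abundant genes left out of the library size (0.06), with the replicate block (edgeR adjusted p = 0.051), and without curcumin library 2, curcumin library 3, untreated library 1 or untreated library 3 (edgeR adjusted p = 0.084, 0.11, 0.13 and 0.096). MYBBP1A, a nucleolar protein known to restrain rRNA synthesis, averaged 77.0 ± 15.8 CPM after curcumin and 104 ± 10.2 CPM in untreated cells (SD, n = 3 each). Its groups did not overlap, yet it missed the threshold (log2 fold change -0.43 ± 0.18, edgeR adjusted p = 0.059), and without curcumin library 1 it passed (edgeR adjusted p = 0.03). MYBBP1A was also called lower with library size alone (-1.22), the most abundant genes left out (-0.78), no filter (-0.51) and limma-voom (-0.44). DDX21, an RNA helicase of rRNA transcription and processing, had a log2 fold change of -0.15 (95% interval -0.49 to 0.19), which was 0.26 with the length and GC trend removed. DDX21 was called lower with library size alone (-0.96) and with the most abundant genes left out (-0.51).

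The order of levels among the factors also changed. On the scale of CPM per kilobase of transcript, NPM1 stood first in both groups, at 1006 after curcumin and 363 in untreated cells, and NCL, which was second in untreated cells at 141, stood at 123 after curcumin, below FBL and NHP2 at 332 and 222 and beside BOP1 at 132, from which it does not differ beyond the spread. At the other end, UTP20 stood lowest after curcumin at 1.20, and UTP15 and UTP20 stood lowest in untreated cells at 3.48 and 3.50, values that do not differ beyond their spread. Together the 34 factors summed to 5035, 5021 and 4953 CPM in curcumin libraries 1 to 3, against 3347, 3820.1 and 3075 CPM in untreated libraries 1 to 3, a sum in which NPM1 is the largest term. As a share of all raw counts the direction was the opposite, with 0.35% to 0.41% in curcumin libraries and 0.41% to 0.51% in untreated libraries.

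The libraries were not equally alike. The coefficient of variation over the 3 libraries of a group ran from 4.20% for NPM1 to 56.1% for UTP3 after curcumin (median 15.6%) and from 1.18% for DKC1 to 36.4% for UTP20 in untreated cells (median 12.9%). Untreated library 2 was the highest of its group for 26 of the 34 factors. Curcumin library 3 was the highest of its group for 17 factors and the lowest for 13. Totals were 16663610 to 17893127 counts in curcumin libraries and 18154536 to 20311888 in untreated libraries. The 100 most abundant genes took 39.9% to 43.3% of the counts in curcumin libraries and 18.9% to 22.7% in untreated libraries. Ribosomal protein genes took 15.9% to 17.4% in curcumin libraries and 4.92% to 6.76% in untreated libraries, and mitochondrial genes 7.37% to 9.90% in curcumin libraries and 2.95% to 6% in untreated libraries. The TMM factors were 0.716 to 0.804 for curcumin libraries and 1.30 to 1.34 for untreated libraries, and the part of this shift in composition in the results was not tested beyond the scalings given here. With library size alone the median log2 fold change of all genes was -0.84, and 3 factors were called higher (8.82%, against 9.62% of all genes) and 25 lower (73.5%, against 56.5%). With the 100 most abundant genes left out of the library size it was -0.39, and 7 were called higher (20.6%, against 18.6% of all genes) and 21 lower (61.8%, against 40.5%). Relative to the median of all genes, the median of the factors was -0.23, -0.24 and -0.25 with TMM factors, library size alone and the most abundant genes left out. FBL, NHP2 and NPM1 were called higher in all 15 alternatives, and GAR1, GNL3, PPAN, RRP1B, RRS1 and WDR43 were called lower in all 15. The share of all genes that kept a call in all 15 was not computed, so whether the factors differ from it is not known.

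Across all genes the fold change also went with transcript length, taken as that of the longest protein-coding transcript in GENCODE 29. Among the 10625 protein-coding genes with 5 CPM or more, Spearman's rho between length and log2 fold change was -0.50, and over the 34 factors it was -0.32, both as descriptions across genes measured in the same libraries. When these genes were cut by length into 5 classes of equal size, the median log2 fold change of all genes was 0.78 in the shortest class and -0.78 in the longest, and that of the factors was 0.21 (12 factors) and -0.97 (3 factors). Factors called higher had a median length of 1758 bases, against 2740 for those called lower and 3038 for those not called. The snoRNP core proteins had a median length of 1224 bases, against 2352 for the processing factors. The shortest class held 5 factors called higher (FBL, NHP2, NPM1, NOB1 and RRP9) and 3 called lower (PPAN, GAR1 and RRS1). The choice of transcript weighs on WDR3 and WDR12, whose longest annotated transcripts reach 9974 and 8100 bases. With the trend of length and GC removed, 7 factors were called higher (20.6%) and 13 lower (38.2%), against 26.5% and 22% of all genes. FBL, NHP2, NPM1, NOP56, NOP58 and BOP1 were still called higher, but at smaller log2 fold changes of 0.83, 0.44, 1.0, 0.66, 0.79 and 0.88. The edgeR adjusted p of NHP2 was 0.033. NOLC1 was still called higher at a larger value, 0.65 (edgeR adjusted p = 0.0035), against 0.43 with the trend kept. The log2 fold changes of GAR1 and RRP1B were -1.75 and -0.60, and both were still called lower.

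**Figure D4:**
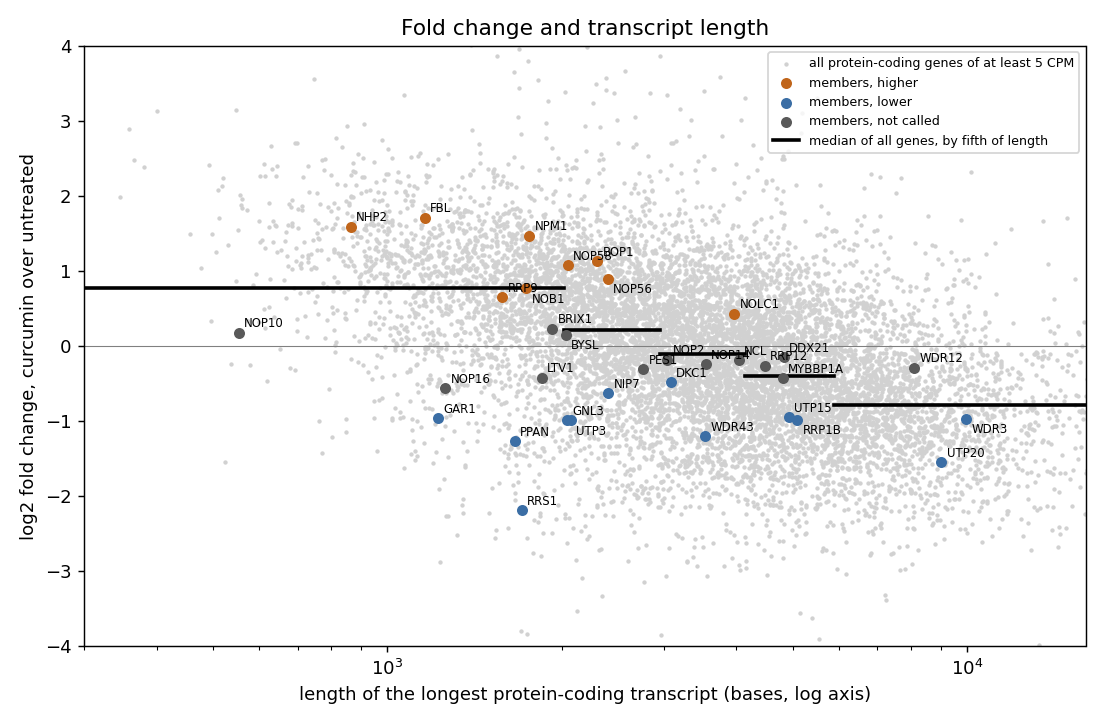
Log2 fold change (curcumin over untreated) against transcript length in bases (log axis) for protein-coding genes with 5 CPM or more (grey; the few genes beyond the axes are not drawn) and for the 34 factors (coloured by call), with the median of all genes in each of the 5 length classes (black bars). The bars step down from 0.78 to -0.78, and RRS1, PPAN and GAR1 lie far below the bar of their own length.

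Several of the genes also carry snoRNA genes in their introns. Of the 34 factors, 7 host 25 annotated snoRNA genes in all. NOP56, with 5, and NOP58, with 4, were higher, GNL3, with 6, WDR43, with 3, DKC1, with 2, and PPAN, with 2, were lower, and NCL, with 3, was not called. RRS1 and UTP3 consist of 1 exon each in the annotation. FBL lies on chromosome 19 at 39834458 to 39846414 (minus strand, 9 exons), NHP2 on chromosome 5 at 178149460 to 178153967 (minus strand, 4 exons), GAR1 on chromosome 4 at 109815510 to 109824740 (plus strand, 7 exons) and NPM1 on chromosome 5 at 171387116 to 171411137 (plus strand, 11 exons), all in GENCODE 29 on GRCh38.

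The other genes of the pathway, taken from lists by function, also went in both directions. Of 15 genes of the RNA polymerase I machinery, 5 were higher (33.3%, against 27.2% of all genes) and 8 lower (53.3%, against 28.9%). Their median log2 fold change was -0.69. POLR1A, the largest catalytic subunit, averaged 23.3 ± 1.71 CPM after curcumin and 95.5 ± 17.1 CPM in untreated cells (SD, n = 3 each; edgeR adjusted p = 1.8e-05). The transcription factor UBTF averaged 57.5 ± 3.26 CPM after curcumin and 109 ± 6.91 CPM in untreated cells (SD, n = 3 each; edgeR adjusted p = 0.0003). POLR1B, the other subunit of the catalytic centre, and the subunit CD3EAP were lower, with log2 fold changes of -1.14 and -1.46. The small subunits POLR1D and ZNRD1 rose, by 1.54 and 2.0. TCOF1 (treacle), a nucleolar partner of the polymerase, had 0.02 (edgeR adjusted p = 0.94), its sign changing with the setting. Library size alone called TCOF1 lower (-0.78). The machinery thus held both directions within a single enzyme.

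Among 10 other snoRNP assembly factors, 3 were higher (30%, against 27.2% of all genes) and 1 lower (10%, against 28.9%). SNU13, the RNA-binding protein of the box C/D core, rose by 0.94 on the log2 scale, and RUVBL2, an ATPase of the assembly complex, by 0.69. Neither was called with library size alone (0.14 for SNU13 and -0.12 for RUVBL2) or with the length and GC trend removed (0.29 and 0.26 in the same order), and RUVBL2 was not called with the most abundant genes left out (0.33). ZNHIT6, another box C/D assembly factor, fell by 1.37. Of 43 other small-subunit factors tested, 8 were higher and 15 lower (18.6% and 34.9%). Their median log2 fold change was -0.23, against -0.42 for the 11 small-subunit factors above. UTP6 and RIOK3 rose, by 1.22 and 1.96, while IMP3, of the U3 snoRNP, and UTP25 were lower, at log2 fold changes of -2.30 and -2.09. Of 49 other large-subunit factors, 13 were higher and 11 lower (26.5% and 22.4%). Their median was 0.19, against -0.56 for the 11 large-subunit factors above, so the fall was not shared by this list. NSA2 and ZNF622 rose, by 1.72 and 2.83, while GNL3L, the relative of GNL3, and URB1 were lower, at -2.11 and -1.38. With the length and GC trend removed, URB1 stood at -0.47, ZNHIT6 at -0.70, UTP25 at -1.29 and ZNRD1, above, at 0.88, all still called.

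Of 15 exosome and nuclease genes, 2 were higher (13.3%, against 27.2% of all genes) and 6 lower (40%, against 28.9%). EXOSC1 rose by 1.40 on the log2 scale and EXOSC8 by 0.70. With the length and GC trend removed neither was called, EXOSC1 standing at 0.32 and EXOSC8 below 0, where library size alone put it too. EXOSC6 fell by 1.82, and the nuclease DIS3 fell by 0.82 but stood at 0.17 with the length and GC trend removed. The 77 cytosolic ribosomal protein genes stood apart from the factors that assemble their products. Of these genes, 76 were higher, with a median log2 fold change of 2.34, and RPS9 alone was not called. RPS9 had 9.93, 0 and 1.33 CPM in the curcumin libraries and 1.82, 2.67 and 0.747 CPM in the untreated ones. At levels this low, whether RPS9 changed cannot be judged. RPL41 and RPL39 rose, by 2.70 and 3.13. Ribosomal protein promoters held CACGTG in 3 of 61 (4.92%), against 14 of 38 (36.8%) for the other small-subunit factors and 14 of 45 (31.1%) for the other large-subunit factors. It lay in 0 of 11 promoters of the RNA polymerase I machinery, 0 of 7 of the other snoRNP assembly factors and 2 of 13 (15.4%) of the exosome and nuclease genes. The transcript of MYC, the factor best known for driving ribosome biogenesis genes, averaged 183 ± 66.9 CPM after curcumin and 284 ± 76.5 CPM in untreated cells (SD, n = 3 each). It missed the threshold (log2 fold change -0.63 ± 0.27, edgeR adjusted p = 0.067) but passed as lower without curcumin library 3 (edgeR adjusted p = 0.0048) and without untreated library 2 (edgeR adjusted p = 0.021). It was also called lower with library size alone (-1.45) and with the most abundant genes left out (-1.01). No filter on low counts (-0.71), the replicate block (-0.65) and removal of the length and GC trend (-0.86) gave the same call. The other alternatives did not call it.

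**Figure D5:**
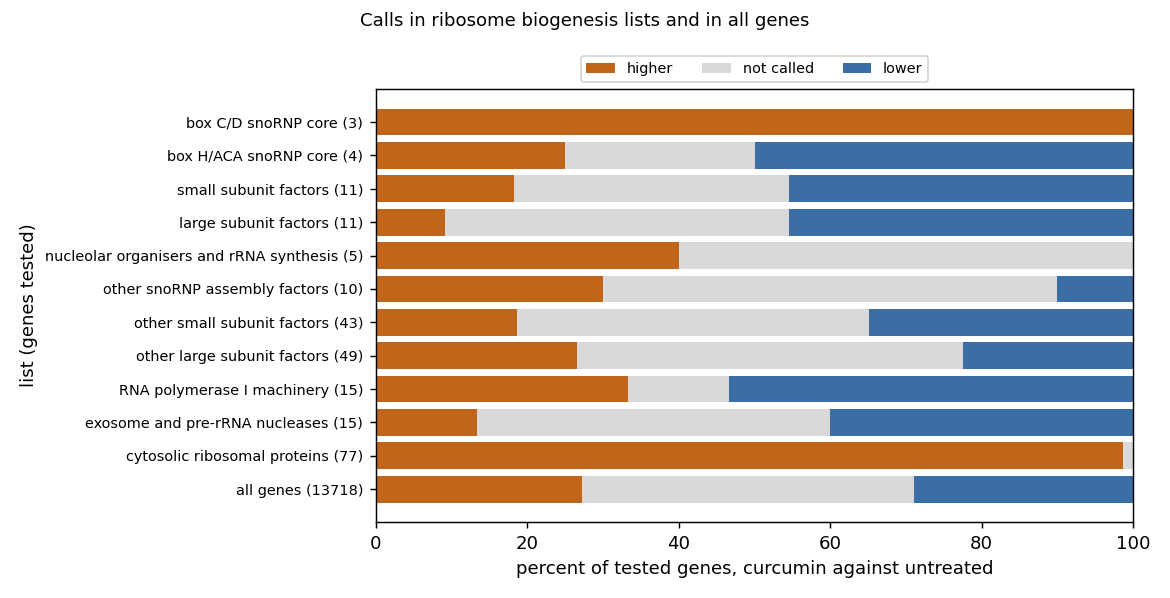
Percent of the tested genes of each role and pathway list, and of all genes, that were called higher after curcumin (orange, left), not called (grey) or called lower (blue, right) by edgeR at an adjusted p under 0.05; the number of genes tested stands in brackets. The box C/D core (3 of 3) and the ribosomal protein genes (76 of 77) are nearly all orange, and the subunit factors hold 45.5% blue in both lists, against 28.9% of all genes.

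The cells carried the epithelial markers of their label. Of the 8 colon epithelial genes, 4 were higher after curcumin and 2 lower, and they summed to 7221 to 8464 CPM in curcumin libraries and 3846 to 4537 CPM in untreated libraries, the most abundant being KRT8. VIL1 was near 0 in both groups. CLDN3, a tight junction protein, averaged 9.97 ± 1.13 CPM after curcumin and 47.9 ± 15.3 CPM in untreated cells, and CDX2, an intestinal transcription factor, averaged 9.63 ± 2.96 CPM after curcumin and 25.4 ± 1.19 CPM in untreated cells (SD, n = 3 each). The 8 markers of blood, vessel and connective tissue cells summed to 25.8 to 67.6 CPM in curcumin libraries and 27.1 to 32.6 CPM in untreated libraries. Of these, LYZ and PECAM1 were higher after curcumin, and CD3E was at 0 in all 6 libraries.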

How the data were processed

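Per the labels' protocols, total RNA of the 6 HCT116 samples went into a SMARTer mRNA-Seq library kit. The authors deposited estimated counts per gene (expected counts, 51.6% of those above 0 not whole) with no scaling between libraries. The sources used here do not name the aligner, the counter, the strand setting or the annotation. Mouse builds (GRCm38, mm10) are named in the submitters' processing notes, yet all 35106 rows carry human Ensembl identifiers, 35003 of them in GENCODE 29, and the table was read as human.

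Counts were rounded (largest move 0.5), filtered with filterByExpr (minimum count 10, minimum total 15), scaled by TMM and fitted in R 4.3.3 with edgeR 4.0.16 (quasi-likelihood test, curcumin against untreated), adjusting p over 13718 genes. CPM are TMM-normalised, and SE and intervals come from that fit. The script was tested on simulated data. Alternatives were median-of-ratios (RLE) factors, library size with and without the 100 most abundant genes, no filter, a mean of 50 counts, removal of length and GC trends (loess span 0.3), a replicate block, each library left out, DESeq2 1.42.0 and limma 3.58.1 voom. Replicates differed beyond sampling noise (chi-square divided by its degrees of freedom, 11.6 to 75.3).

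The 34 factors and the lists were chosen with earlier results of these data known. Values in every library are given for the snoRNP proteins, NCL, NPM1, NOLC1, RRP9, UTP20, BOP1, PES1 and, per role, up to 3 called factors in each direction with the smallest adjusted p. Of each other list the 2 higher and 2 lower called genes with the smallest adjusted p are named, with a few fixed ones. RRN3 and SURF6 were not analysed here. Promoters of BOP1, NOLC1, NOP58, RRP12, RRP1B and RRS1 were not analysed here.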

Additional observations from a re-analysis of the deposited data

How the results depend on the processing

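Of the 4 summary results, the number of factors called higher (9) was 3 with library size alone and ran from 7 to 9 as single libraries were left out. The number called lower (12) was 25 with library size alone, 21 with the 100 most abundant genes left out of the library size, and 9 to 14 as single libraries were left out. The median of the factors (-0.27) was -1.08 and -0.64 under those 2 scalings and -0.34 to -0.21 as libraries were left out. The difference between snoRNP proteins and processing factors (1.39) was 0.92 with the length and GC trend removed and 1.30 to 1.67 as libraries were left out. Every other alternative kept all 4 within 1.5 times or within 1 SD, the change of membership included (1.22 and 1.21).

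Signs turned for single genes. With library size alone the log2 fold changes were -0.62 for NOP10, -0.68 for BYSL, -0.39 for NOLC1 and -0.78 for TCOF1, all called lower. They were -0.14 for RRP9, -0.03 for NOB1, -0.59 for BRIX1, -0.12 for RUVBL2 and -0.094 for EXOSC8, none of them called. With the most abundant genes left out they were -0.18 for NOP10, -0.22 for BYSL, -0.13 for BRIX1 and -0.34 for TCOF1. With the length and GC trend removed they were -1.35 for NOP10 (called lower), -0.25 for BYSL, 0.58 for WDR12, -0.14 for BRIX1, 0.052 for NCL, 0.26 for DDX21, -0.078 for EXOSC8 and 0.17 for DIS3. With no filter TCOF1 was at -0.061. As libraries were left out, the values ran from -0.18 to 0.30 for BYSL, -0.028 to 0.52 for BRIX1, -0.46 to 0.077 for NOP2 and -0.12 to 0.20 for TCOF1. The cause was not tested.

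The replicate block gave 8 factors higher and 12 lower, a median of -0.31 and a difference of 1.42. It ended the call of NOLC1 (edgeR adjusted p = 0.051) and of no other factor, and it brought MYC under the threshold (edgeR adjusted p = 0.016). Same-numbered libraries deviated together only weakly (correlations 0.0172, 0.0299 and 0.163), and not every library correlated best with its own number, so the numbers were not taken to pair the samples. Depth limits the factors of few counts, such as GAR1 and RRS1, more than the abundant ones.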
